A study of Mus musculus with 22 samples.

Results

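Expression of 10 genes of the Notch pathway was followed across 6 cell types sorted from mouse colon crypts. They were listed by name and comprised 3 receptors (Notch1, Notch2, Notch3), 4 ligands (Dll1, Dll4, Jag1, Jag2), the DNA-binding factor Rbpj and 2 targets (Hes1, Nrarp), that is 10 of the 24421 genes in the count files. All 10 passed the filter on low counts and stood among the 22781 genes tested. In mm10, Notch1 lies at chr2:26457903-26516663, Notch2 at chr3:98013527-98150361 and Notch3 at chr17:32120820-32166852. The ligands lie at chr17:15367354-15376872 (Dll1), chr2:119325784-119335962 (Dll4), chr2:137081456-137116644 (Jag1) and chr12:112907819-112929776 (Jag2). Hes1 lies at chr16:30064384-30067796, Rbpj at chr5:53466152-53657362 and Nrarp at chr2:25180758-25183339, and the counts cover the exons of each gene. RNA was sequenced in 22 libraries, 3 of stem cells, 3 of absorptive progenitors (AbsPro), 4 of a mixed population of secretory progenitors, deep crypt secretory cells and some goblet cells (SecPDG), 5 of enterocytes, 5 of tuft cells and 2 of enteroendocrine cells (EECs). The mice were untreated wild-type C57BL/6N males of 5 to 7 weeks, and live cells were sorted from the whole colon without Cd31 or Cd45 and with Epcam. By the labels, stem cells had the highest Cd44 with low Cd24 and no Ckit, AbsPro medium to high Cd44 with low Cd24 and no Ckit, and SecPDG high Cd44 with medium Cd24 and medium Ckit, while the study's text places AbsPro and SecPDG at medium Cd44 and detects Kit protein in tuft cells only. Tuft cells had high Cd24 with Ckit, enterocytes low or no Cd44 and no Cd24, and EECs low or no Cd44 with Cd24. Per the study's methods, each stem cell and AbsPro library came from a single mouse. Libraries of the other cell types, enterocytes included, each pooled mice, and sorts were pooled where cells were few. Pooling thus cannot be told apart from cell type. A library is a bulk sample, so that fewer cells of a type and less RNA per cell cannot be told apart.

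Notch receptors are cell surface proteins that are cut when a Delta-like (Dll) or Jagged (Jag) ligand on a neighbouring cell binds them, and the freed intracellular part joins Rbpj at its target genes. Hes1, a transcriptional repressor, and Nrarp, a feedback inhibitor of the receptor's intracellular part, are among the targets that this complex is known to switch on. In intestinal crypts the pathway is known for setting the choice between the absorptive and the secretory lineage, since Hes1 represses Atoh1, the factor that secretory cells need, and cells that make Atoh1 also make Dll ligands.

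Counts on genes ranged from 4122122 to 22462518 per library, and EEC 1 was the shallowest. The mean share of reads that fell outside annotated genes was 43.7% (SecPDG), 47.1% (stem cells), 47.7% (AbsPro), 60.9% (tuft cells), 76.3% (enterocytes) and 77.1% (EECs). EEC 1 stood apart at 89.7%, as did Tuft 5 at 43.5% against 59.5% to 68.1% in the other tuft cell libraries. Olfactory, vomeronasal and trace amine receptor genes and hair keratin-associated genes were taken as silent in the gut. They averaged 0.209 normalized counts per kilobase of exon in the stem cell libraries. The same genes averaged 2.45 in tuft cells, while enterocytes had 4.82 and EECs 6.07, the mean of 10.2 in EEC 1 and 1.92 in EEC 2. The mean background of a cell type, times a gene's length, is given below as a share of the gene's mean level. In EECs that share joins 2 unlike libraries. Any true transcription of these genes in a cell type would enter the estimate. AbsPro had no marker list of its own. Stem cells, SecPDG, tuft cells and EECs were each highest for the mean summed level of their own list. In stem cells, Cd44, which was used for sorting, made up 9935 of the 20189 normalized counts of the stem list. Single markers went the other way, with Pyy at 558 in enterocytes against 60.6 in EECs, and Muc2 at 675085 in tuft cells against 636062 in SecPDG. The enterocyte list reached 56634 on average in enterocytes against 74793 in AbsPro and 76159 in EECs, where EEC 2 alone had 131381. The goblet and deep crypt secretory list (Muc2, Fcgbp, Clca1, Reg4 and Agr2) was at 777289 to 1171500 in tuft cells beside 805405 to 3213720 in SecPDG and 20873 to 34387 in stem cells, and the part of such cells in the tuft cell values was not tested.

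Of the receptors, Notch1 was highest in stem cells and was called lower in 4 of the 5 other cell types, with the step to AbsPro short of the threshold. Levels are normalized counts, that is counts scaled to the mean library size with TMM factors. Notch1 was at 5961, 4676 and 5054 in the 3 stem cell libraries and at 2148, 2435 and 1872 in AbsPro. It was at 1179.9, 1053, 1813 and 1492 in SecPDG and at 2299, 1042, 2063, 1350.3 and 1486 in tuft cells. Enterocytes had 541, 629.9, 477, 1322 and 738, and the 2 EEC libraries 336 and 368. Each stem cell library was above all 19 others, and each EEC library was below all others.

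Against stem cells, the log2 fold change of Notch1 was -1.91 ± 0.32 (SE) in SecPDG, with an adjusted p of 1.00e-05 by the quasi-likelihood test of edgeR with Benjamini-Hochberg adjustment over all genes tested, which is used throughout. A call needs an adjusted p below 0.01 together with 50 or more normalized counts on average over the 22 libraries. It was -1.67 ± 0.30 in tuft cells (adjusted p = 2.17e-05). Enterocytes had -2.81 ± 0.31 (adjusted p = 3.05e-10) and EECs -3.89 ± 0.48 (adjusted p = 4.40e-09), which was -3.13 with DESeq2 and -3.23 with its size factors, both called. In AbsPro it was -1.28 ± 0.34 with an adjusted p of 0.0351, which was not called, although the libraries of the 2 cell types did not overlap and DESeq2 called it (adjusted p = 0.00154). In the order of the means, from stem cells through AbsPro, tuft cells, SecPDG and enterocytes to EECs, 1 of 5 neighbouring pairs was called, SecPDG above enterocytes (log2 difference 0.90 ± 0.30, adjusted p = 0.00949), with libraries that overlapped. The background estimate was 0.0379% of the Notch1 level in stem cells, 6.17% in enterocytes and 16.4% in EECs.

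Notch2, a second receptor of the same build, was also highest in stem cells, with 955, 1062 and 856 normalized counts, in a narrower range of levels. SecPDG had the lowest values, 229.7, 245, 304 and 257, and AbsPro had 714, 309.9 and 639. Tuft cells had 274 to 556 and enterocytes 335 to 591, all below the stem cell libraries. The 2 EEC libraries disagreed, at 1204 in EEC 1 and 195 in EEC 2, so that they stood above and below the stem cells.

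Notch2 was called lower than in stem cells in SecPDG, by a log2 fold change of -1.88 ± 0.36 (adjusted p = 1.26e-04). In tuft cells it was -1.22 ± 0.33 (adjusted p = 0.00421) and in enterocytes -0.97 ± 0.33 (adjusted p = 0.00972). The call in tuft cells was lost without Stem 1, Stem 2, Tuft 2, Tuft 4 or Tuft 5 (adjusted p = 0.0107 to 0.0263) and that in enterocytes without Stem 1, Stem 2, Enterocyte 2, Enterocyte 3 or Enterocyte 5 (adjusted p = 0.0122 to 0.0323). With DESeq2 neither was called, with adjusted p of 0.0806 in tuft cells and 0.481 in enterocytes, nor was either with its size factors, library totals, thinning or trended dispersions (adjusted p = 0.0179 to 0.325). In EECs the log2 fold change of -0.53 ± 0.43 was not called. It was -2.46 without EEC 1, where it passed the threshold, and turned to 0.33 without EEC 2 and to 0.63 in DESeq2.

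Among the 3 receptors listed, Notch3 was the least abundant per length in every cell type except EECs. Stem cells had 275, 78.7 and 48.5 normalized counts, AbsPro had 28.3, 2.44 and 27.2, and SecPDG had 0, 36.1, 8.42 and 58.8. Tuft cells had 41.0 to 216, enterocytes 119 to 339.7 and the EEC libraries 673 and 291. Both EEC libraries were above all stem cell libraries, and Stem 1 had more than 3 times the level of Stem 2 and Stem 3.

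In EECs, Notch3 was called higher than in stem cells, with a log2 fold change of 1.84 ± 0.54 (adjusted p = 0.00438). The call was lost without EEC 1 (0.99, adjusted p = 0.331), without Stem 2 (adjusted p = 0.0493) or without Stem 3 (adjusted p = 0.0649), and the value was 2.86 without Stem 1. It was also lost with DESeq2 (2.75, adjusted p = 0.0233), with the 2 cell types alone (adjusted p = 0.0654), with trended dispersions (adjusted p = 0.117) and after thinning, where its mean was below the minimum. In SecPDG the log2 fold change was -2.41 ± 0.70 (adjusted p = 0.0178), not called, and it passed the threshold without Stem 3 (-2.80) or without SecPDG 4 (-3.33). In enterocytes the difference from stem cells was 0.75 ± 0.47, and it was called, at 1.77, without Stem 1 (adjusted p = 0.00842).

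Notch3 is a known gene of pericytes and other mural cells. Summed markers of these cells were Pdgfrb, Rgs5, Acta2, Des, Myh11 and Cspg4. The sum was higher on average in tuft cells, enterocytes and EECs than in the other 3 cell types. Mean Notch3 was likewise higher in enterocytes and EECs. In tuft cells mean Notch3 was near that of stem cells (141 against 134, log2 fold change 0.06 ± 0.49, adjusted p = 0.93). In AbsPro the mean sum was 252 against 244 in stem cells, where mean Notch3 was 19.3 against 134. Stem cells had sums of 173 to 379 normalized counts, AbsPro of 237 to 270.1 and SecPDG of 71.9 to 142. Tuft cells had 199.9 to 768 and enterocytes 589.7 to 1438, and the sum was 3182 in EEC 1 but 305 in EEC 2. Within each cell type, the library with the lowest sum also had the lowest Notch3. The highest sum and the highest Notch3 were in the same library in stem cells (Stem 1), enterocytes (Enterocyte 3) and EECs (EEC 1). In AbsPro, SecPDG and tuft cells they were in different libraries. Against stem cells, 1 of the 6 markers was called higher in tuft cells, and enterocytes and EECs had 2 each, and only Rgs5 in AbsPro was at 0 in every library of a cell type. The part of these cells in the Notch3 values was not tested. The background estimate made up 13.9% (tuft cells), 17.7% (enterocytes) and 10.1% (EECs) of the Notch3 level.

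**Figure D1:**
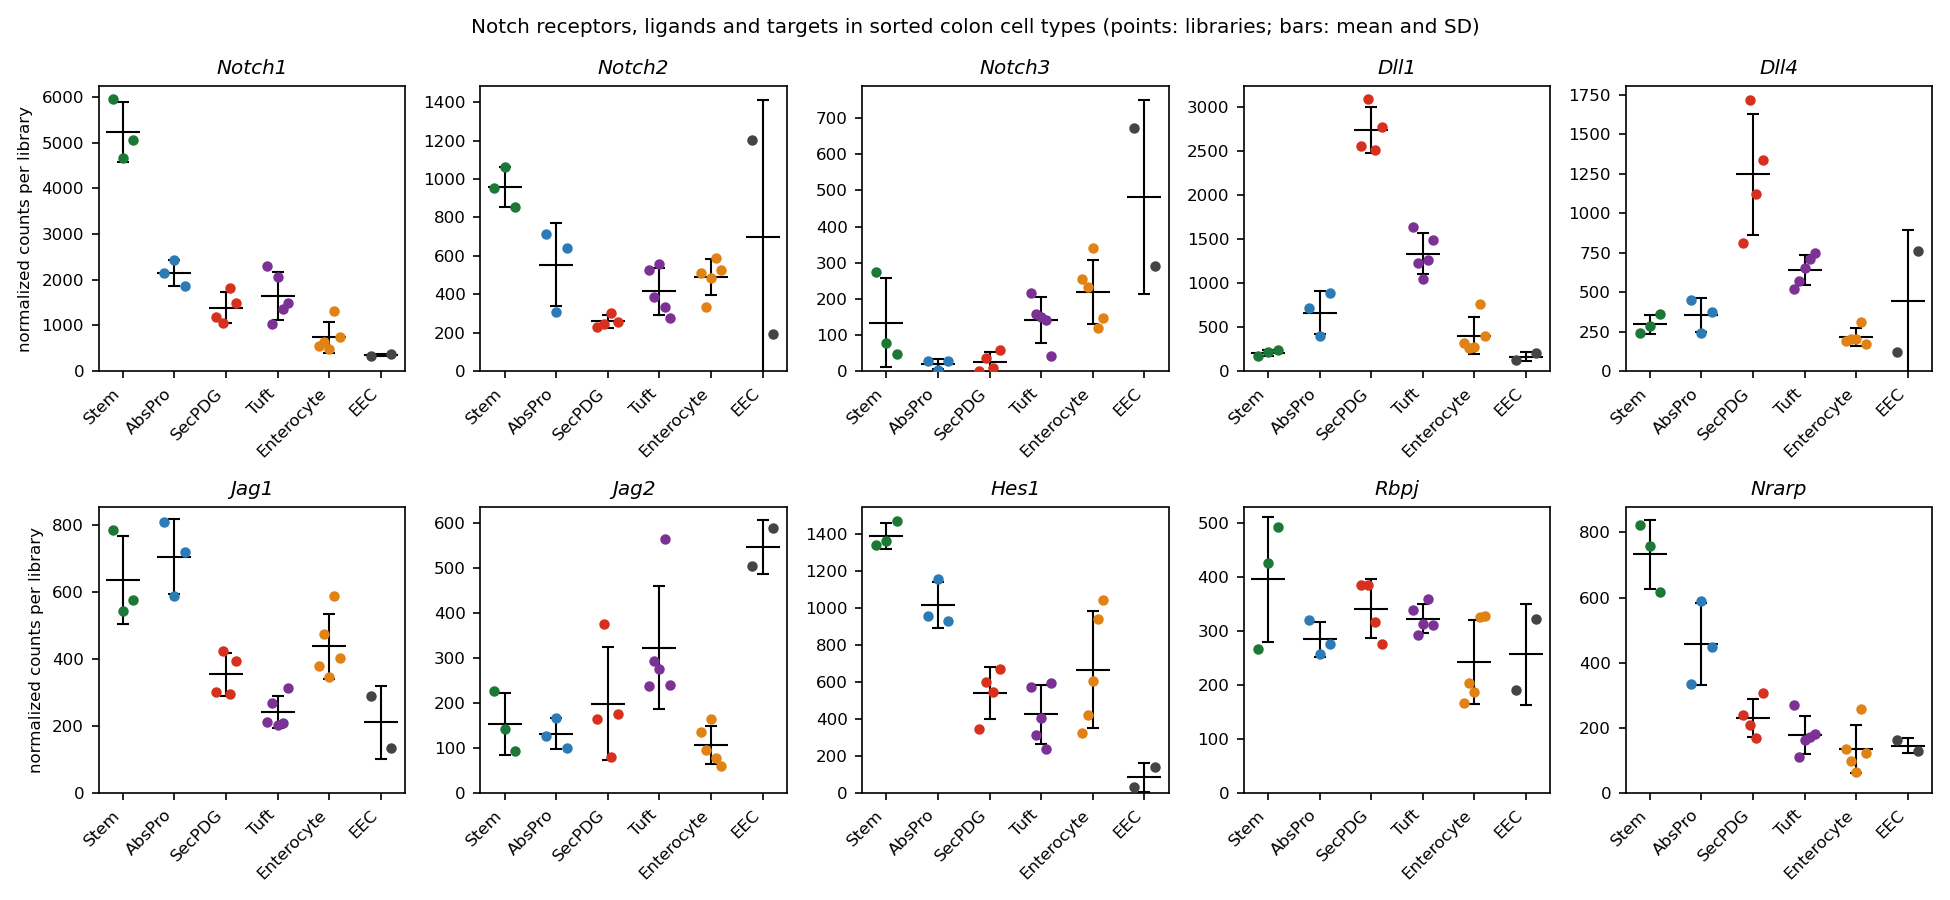
Normalized counts (y axis, linear, from 0) of the 10 genes in each of the 22 libraries (points), by cell type (x axis), with the mean and SD of each cell type as bars. Notch1 was highest in the 3 stem cell libraries (4676 to 5961), Dll1 in the 4 SecPDG libraries (2515 to 3088), and the 2 EEC libraries lay far apart for Notch2 (1204 and 195) and Dll4 (123 and 759.6).

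Per kilobase of exon, Notch1 made up 83.6% ± 2.1 (SD, n = 3) of the 3 receptors in stem cells, 80.3% ± 8.0 (n = 3) in AbsPro, 83.7% ± 2.8 (n = 4) in SecPDG and 74.9% ± 6.2 (n = 5) in tuft cells. Its share was 49.8% ± 11.6 (n = 5) in enterocytes and 28.3% ± 18.5 (n = 2) in EECs. Notch3 made up 2.39% ± 1.91 in stem cells, 19.2% ± 9.33 in enterocytes and 37.3% ± 2.07 in EECs. Among these 3 receptors, stem cells and both progenitor populations thus held mainly Notch1, while enterocytes and EECs held larger mean shares of Notch3. The shares leave out the receptor Notch4, described below. Per kilobase, Notch4 averaged 72.2 normalized counts in tuft cells and 52.9 in enterocytes, above Notch2 at 39.6 and 46.6. In the other cell types Notch4 averaged less than Notch2, with 9.44 in stem cells and 43.5 in EECs. The share of Notch2 was 30.9% ± 4.70 in enterocytes, above that of every other library except EEC 1, and the EEC libraries lay apart at 49.0% and 19.9%.

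Among the ligands, Dll1 changed most. Stem cells had 172, 216 and 239 normalized counts, AbsPro 714, 399 and 882, and SecPDG 2556, 3088, 2515 and 2775. Tuft cells followed with 1638, 1233, 1041, 1262 and 1484, enterocytes had 323, 260.4, 273, 762 and 403, and the pair of EEC libraries had 127 and 204. The SecPDG libraries were above all others, the tuft cell libraries came next, and neither overlapped any other cell type.

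Dll1 rose in SecPDG over stem cells by a log2 fold change of 3.70 ± 0.37 (adjusted p = 1.42e-11) and in tuft cells by 2.67 ± 0.35 (adjusted p = 3.72e-08). It was also the 1 member called in AbsPro, at 1.66 ± 0.38 (adjusted p = 0.00896, all 3 libraries above all stem cell libraries). That call was lost without Stem 1, Stem 2, Stem 3, AbsPro 1 or AbsPro 3 (adjusted p = 0.0139 to 0.0899), and without the filter, after thinning or with trended dispersions (adjusted p = 0.0108 to 0.0303). In enterocytes the difference of 0.95 ± 0.36 was not called (adjusted p = 0.0217), although all 5 libraries were above the stem cells and DESeq2 called it at 1.44 (adjusted p = 4.41e-09). In EECs it was -0.30 ± 0.54, and 0.36 in DESeq2. SecPDG exceeded tuft cells by 1.03 ± 0.27 (adjusted p = 0.00824), in a comparison where 3.36% of all genes tested were called. It was 1 of 3 calls among the 50 neighbouring pairs of all members. These pairs were taken from the order of the means in the same data, which favours small differences. The share of calls over all genes ordered in that way was not counted.

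Dll4 showed a like order with smaller steps. Stem cells had 243, 288 and 361 normalized counts, AbsPro 453, 239.9 and 374, and SecPDG 808, 1718, 1120.4 and 1339. Tuft cells had 517, 573, 652, 712 and 746 and enterocytes 192, 204, 204, 311 and 170.3. EEC 1 had 123 and EEC 2 had 759.6, the one below all stem cell libraries and the other above all tuft cell libraries. Dll4 rose in SecPDG over stem cells by 2.06 ± 0.35 (adjusted p = 1.76e-05). In tuft cells the difference of 1.11 ± 0.34 missed the threshold (adjusted p = 0.0123) with all 5 libraries above the stem cells, and DESeq2 called it at 1.32 (adjusted p = 7.99e-05). In enterocytes it was -0.45 ± 0.37, and 0.11 in DESeq2. In EECs it was 0.65 ± 0.44, not called, -1.28 without EEC 2, and called at 1.21 with the DESeq2 size factors (adjusted p = 0.00426).

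The goblet and deep crypt secretory markers were highest in SecPDG and tuft cells, as both Dll genes were, but their order differed in the other cell types. Enterocytes had a higher mean sum than AbsPro (387951 against 184051) and lower means of Dll1 and Dll4, and EECs had a higher mean sum than stem cells (46733 against 26324) and a lower mean of Dll1. All 5 of them were called higher than in stem cells both in SecPDG and in tuft cells, and 2 were in enterocytes. AbsPro had sums of 85784 to 262056, enterocytes of 223469 to 686863 and EECs of 36669 to 56796. Of the libraries of AbsPro, AbsPro 2 had both the lowest sum and the lowest Dll1 and Dll4. The part of goblet and deep crypt cells in the AbsPro, tuft cell and enterocyte values of Dll1 and Dll4 was not tested.

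Jag1, the ligand of the Jagged type that crypt bottoms are known to make, ran the other way. Stem cells had 786, 542 and 575 normalized counts and AbsPro 808, 588 and 719. SecPDG had 302, 423, 295 and 394, tuft cells 212, 266, 201, 209 and 312, enterocytes 379, 473, 344, 586 and 402, and the EEC libraries 287 and 133. The SecPDG, tuft cell and EEC libraries were all below the stem cell libraries, and the enterocyte libraries overlapped them.

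Jag1 fell in tuft cells by 1.38 ± 0.30 on the log2 scale (adjusted p = 5.34e-04) and in EECs by 1.66 ± 0.44 (adjusted p = 0.00188). In EECs it was -2.41 without EEC 1, the call was lost without EEC 2 (adjusted p = 0.0610), and DESeq2 gave -0.68 with an adjusted p of 0.126. Its size factors (-0.97), library totals and the 2 cell types alone also ended the call (adjusted p = 0.0108 to 0.0823). In SecPDG the difference of -0.85 ± 0.31 was not called (adjusted p = 0.0790), nor was that in enterocytes of -0.53 ± 0.29, which was close to 0 with the DESeq2 size factors (0.00).

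Jag2, the second Jagged ligand, was highest in EECs. It was at 226, 141 and 91.6 normalized counts in stem cells and at 504 and 589.7 in the EEC libraries. AbsPro had 98.5 to 167, SecPDG 78.3 to 375 and enterocytes 59.5 to 163, which all overlapped the stem cells, while tuft cells had 238, 294, 276, 564 and 240.1. Jag2 rose in EECs by 1.86 ± 0.46 on the log2 scale (adjusted p = 9.18e-04), a call lost without Stem 3 (adjusted p = 0.0144), with the 2 cell types alone (adjusted p = 0.0168) and with trended dispersions (adjusted p = 0.0120). DESeq2 gave 2.57 and its size factors 2.53, both called. In tuft cells the difference of 1.09 ± 0.39 was not called (adjusted p = 0.0296), with all 5 libraries above the stem cells. In enterocytes it was -0.52 ± 0.46, and 0.12 in DESeq2, and the background estimate was 23.3% of the Jag2 level there.

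**Figure D2:**
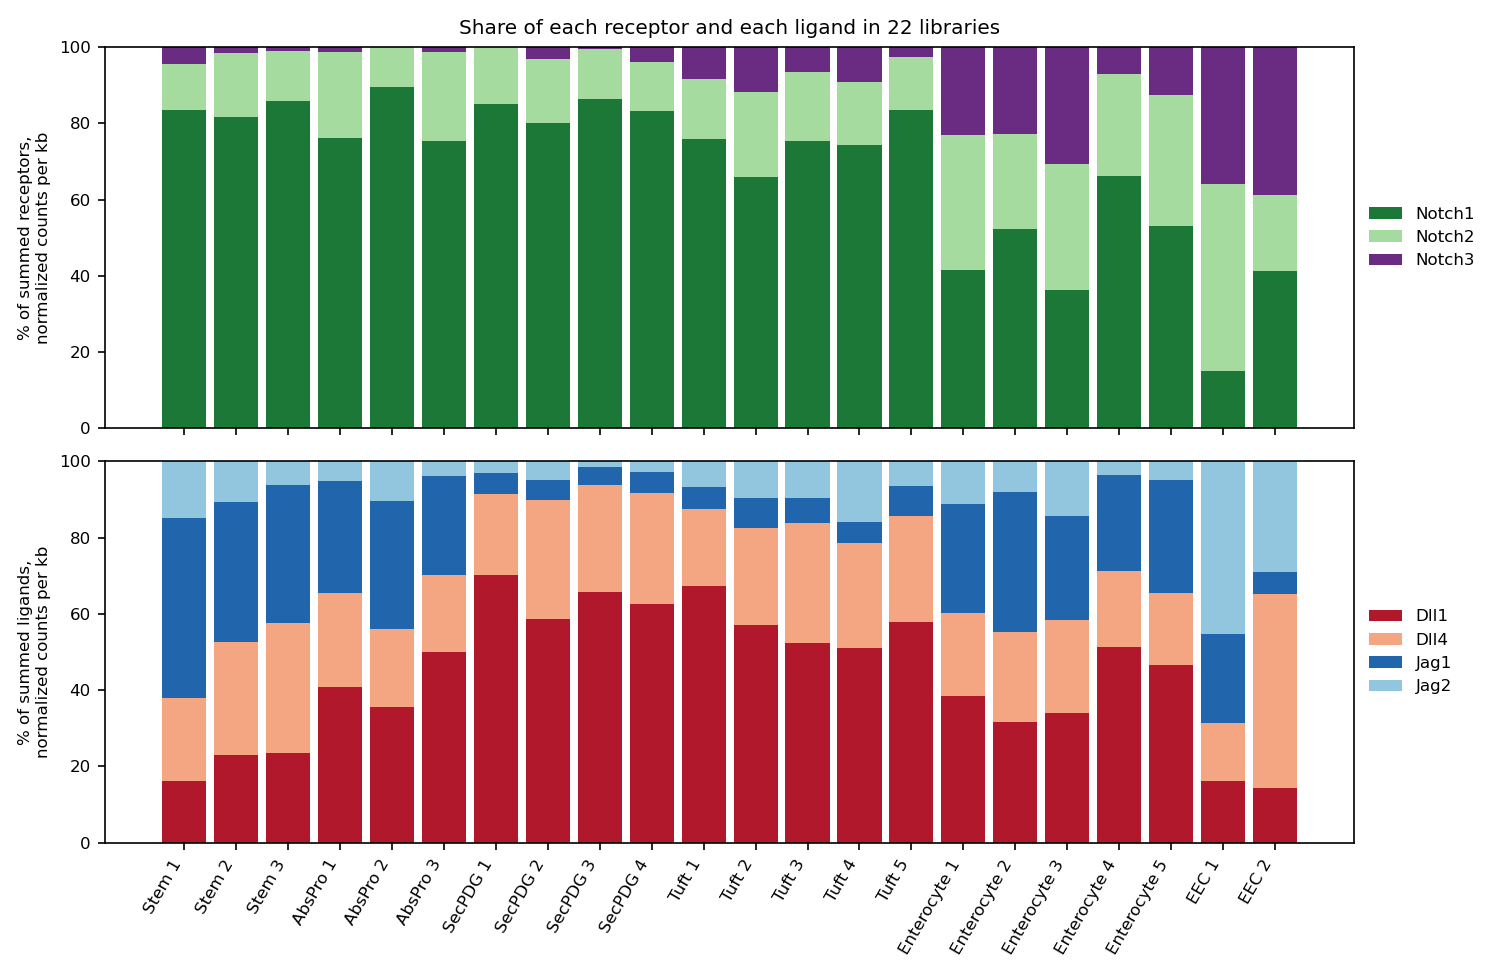
Share of each receptor (upper bars) and each ligand (lower bars) in the sum of its family, in percent of normalized counts per kilobase of exon (y axis), in each of the 22 libraries (x axis). Dll1 and Dll4 together made up 89.9% to 93.7% of the ligands in SecPDG and 38.0% to 57.5% in stem cells, and the share of Notch1 was 81.6% to 85.9% in stem cells and 36.3% to 66.2% in enterocytes.

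Per kilobase, Dll1 and Dll4 together made up 91.7% ± 1.55 (SD, n = 4) of the 4 ligands in SecPDG and 83.6% ± 3.40 (n = 5) in tuft cells. They made up 49.3% ± 10.1 (n = 3) in stem cells, 63.9% ± 7.15 (n = 3) in AbsPro and 62.1% ± 6.30 (n = 5) in enterocytes. Jag1 was the largest ligand in stem cells, at 40.1% ± 6.08, and made up 5.25% ± 0.32 in SecPDG. Jag2 made up 37.1% ± 11.5 (n = 2) in EECs and 3.10% to 10.6% on average in the other cell types. These shares are given as a description, with no test.

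Hes1, the repressor, fell in 4 of 5 comparisons with stem cells. Stem cells had 1338, 1357 and 1468 normalized counts, AbsPro 952, 1157 and 929, and SecPDG 343, 598, 545 and 667. Tuft cells had 569, 309, 404, 236 and 593, and enterocytes 320.3, 419, 604, 939 and 1041. EEC 1 had 28.9 and EEC 2 had 139.5, both below all other libraries. They rest on 16 and 115 raw counts, and the background estimate was 10.6% of the mean Hes1 level in EECs. The stem cell libraries were above all others, AbsPro came next, and the enterocyte libraries spread from the level of tuft cells to that of AbsPro.

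The log2 fold change of Hes1 against stem cells was -1.37 ± 0.33 in SecPDG (adjusted p = 0.00279) and -1.70 ± 0.32 in tuft cells (adjusted p = 4.66e-05). In SecPDG the call was lost without SecPDG 1 (adjusted p = 0.0241) or SecPDG 3 (adjusted p = 0.0108), after thinning (adjusted p = 0.0133) and with trended dispersions (adjusted p = 0.0344). It was -1.06 ± 0.31 in enterocytes (adjusted p = 0.00346), a call lost without Enterocyte 2 (adjusted p = 0.0151) and in DESeq2 (-0.57, adjusted p = 0.113), as well as with its size factors, library totals, the 2 cell types alone, thinning and trended dispersions (adjusted p = 0.0102 to 0.0439). In EECs it was -3.90 ± 0.56 (adjusted p = 1.86e-07), and -5.58 without EEC 2. In AbsPro it was -0.45 ± 0.34 (adjusted p = 0.837), not called, with libraries that did not overlap those of stem cells. In the order of the means, EECs were below tuft cells by 2.20 ± 0.58 (adjusted p = 0.00414), and the other 4 neighbouring pairs of Hes1 were not called.

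Nrarp, the feedback inhibitor, followed the order of Notch1 and Hes1 at the stem cell end. Stem cells had 823, 757 and 617 normalized counts, AbsPro 334, 588 and 449, and SecPDG 238, 208, 168 and 307. Tuft cells had 269.7, 109, 162, 173 and 179.8, enterocytes 135, 96.4, 62.4, 258 and 120.5, and the EEC libraries 161 and 127. The stem cell libraries were above all others and the AbsPro libraries above all of the remaining 16. The log2 fold change was -1.67 ± 0.33 in SecPDG (adjusted p = 2.38e-04) and -2.03 ± 0.33 in tuft cells (adjusted p = 3.18e-06). Enterocytes had -2.44 ± 0.34 (adjusted p = 1.54e-07) and EECs -2.37 ± 0.49 (adjusted p = 9.92e-05), a call lost in EECs with these 2 cell types alone (adjusted p = 0.0150). With DESeq2 the value in EECs was -1.53 and with its size factors -1.74, both called. In AbsPro it was -0.68 ± 0.33 and was not called (adjusted p = 0.523).

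Rbpj, which brings the receptor's intracellular part to DNA, differed little. Stem cells had 267, 426 and 493 normalized counts, AbsPro 319, 258 and 275, and SecPDG 386, 385, 317 and 275. Tuft cells ranged from 293 to 359 and enterocytes from 167 to 327, and EEC 1 had 189.8 and EEC 2 had 323. The libraries of the other 5 cell types all overlapped those of stem cells. By edgeR 0 of the 15 pairs of cell types were called, and 1 had an unadjusted p under 0.05. DESeq2 called 0 of the 6 comparisons counted for it, those with stem cells and SecPDG against AbsPro. The fold change of largest size against stem cells was -0.71 ± 0.32 in enterocytes (adjusted p = 0.0472). In EECs it was -0.59 ± 0.43, and 0.07 in DESeq2.

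Counted together, 1 of the 10 members was called in AbsPro against stem cells, and it was higher, where 0.588% of all genes tested were called (0.496% higher and 0.0922% lower). In SecPDG 6 were called, 2 higher and 4 lower, beside 4.98% of all genes (3.38% higher and 1.6% lower). Tuft cells had 6 calls, 1 higher and 5 lower, beside 12.1% (7.83% and 4.23%). Enterocytes had 4 calls, all lower, beside 22.2% (10.7% and 11.5%), and this was the comparison with most calls over all genes. EECs had 6 calls, 2 higher and 4 lower, beside 19.9% (10.8% and 9.14%). The median log2 fold change of the members was -0.47 (AbsPro), -1.11 (SecPDG), -0.76 (tuft cells), -0.62 (enterocytes) and -0.56 (EECs). Over all 13188 genes with a mean of at least 50 normalized counts the median was 0.04, -0.06, -0.09, -0.30 and -0.30 in the same order, and with DESeq2 size factors the last 2 were 0.35 and 0.48. The 5 comparisons share the 3 stem cell libraries. Shares of all genes called, here and below, are of the 22781 tested, of which 13188 had the mean of 50 that a call needs. All 10 members had that mean, so the shares among genes that could be called are larger than those printed.

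**Figure D3:**
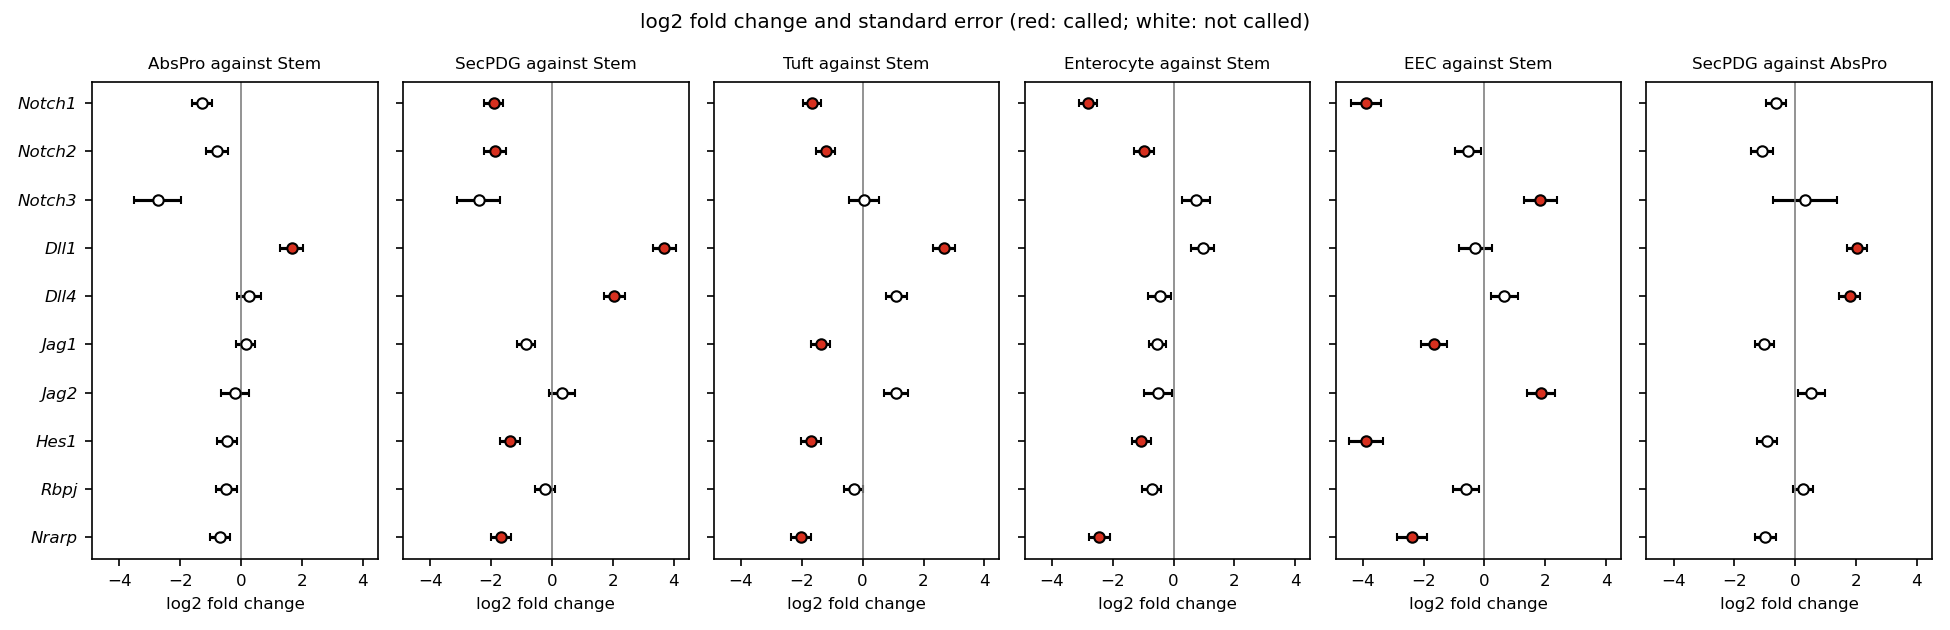
Log2 fold change (x axis) with its standard error of each of the 10 genes (rows) in 6 comparisons, red where called at an adjusted p under 0.01 and white where not. Dll1 stood at 3.70 and Notch1 at -1.91 in SecPDG against stem cells, and Rbpj was called in none of the 6 comparisons.

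Over all 15 pairs of the 6 cell types, Notch1 and Dll1 were called in 10, Hes1 in 9, Notch3 and Nrarp in 7, Dll4 and Jag2 in 5, and Notch2 and Jag1 in 4. All genes were called in 8.13% (tuft cells), 16.2% (enterocytes) and 18.3% (EECs) of cases against AbsPro, and in 3.36%, 23.4% and 21.3% against SecPDG. The pairs among the last 3 gave 8.44% for enterocytes against tuft cells, 9.29% for EECs against tuft cells and 4.7% for EECs against enterocytes.

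The order of the means differed between members. Notch2 ran from stem cells through EECs, AbsPro, enterocytes and tuft cells to SecPDG, and Notch3 from EECs through enterocytes, tuft cells, stem cells and SecPDG to AbsPro. Dll1 ran from SecPDG through tuft cells, AbsPro, enterocytes and stem cells to EECs, and Dll4 from SecPDG through tuft cells, EECs, AbsPro and stem cells to enterocytes. Jag1 was highest in AbsPro, followed by stem cells, enterocytes, SecPDG, tuft cells and EECs, whereas Jag2 began with EECs and tuft cells and ended with AbsPro and enterocytes. Nrarp fell off from stem cells to AbsPro, SecPDG, tuft cells, EECs and enterocytes. Apart from the 3 calls given with Notch1, Dll1 and Hes1, neighbours in these orders were not called. In 8 of those 47 uncalled pairs the libraries did not overlap, and the share over all genes was not counted.

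The 2 progenitor populations were compared directly, since Notch signalling is known to act where the lineages part. SecPDG exceeded AbsPro in Dll1 by a log2 fold change of 2.04 ± 0.33 (adjusted p = 6.94e-06) and in Dll4 by 1.80 ± 0.35 (adjusted p = 1.95e-04), in 4 of 4 libraries each. These were the 2 members called, both higher, beside 3.72% of all genes tested (2.0% higher and 1.73% lower). The other 8 were not called. For Hes1 the difference was -0.92 ± 0.33 (adjusted p = 0.104), for Nrarp -0.99 ± 0.35 (adjusted p = 0.0852), for Notch1 -0.63 ± 0.32 (adjusted p = 0.365), for Notch2 -1.09 ± 0.37 (adjusted p = 0.0719) and for Jag1 -1.01 ± 0.31 (adjusted p = 0.0325). In each of these 5 genes all SecPDG libraries were below all AbsPro libraries. How many of all genes separated in this way was not counted, so this is a description only. For Jag2, Rbpj and Notch3 the libraries overlapped, and the difference in Notch3 of 0.33 ± 1.05 turned to -0.18 without AbsPro 2 and to -0.58 without SecPDG 4.

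Promoters of 9 of the 10 genes were matched in RefSeq (build GRCm38.p6), with 11 start sites in all and each window running from 250 bases before to 50 after the start; that of Hes1 was not matched. The letters CACGNG, a form of the site that Hes repressors are known to bind and one that includes the E-box CACGTG of other factors, were sought on both strands. They were in windows of 7 of these 9 genes, in 8 of the 11, and in 27.5% of all 32851 promoters. GTGGGAA, the core that Rbpj is known to bind, was in 6.38% of all promoters and in 0 of the 11. The matches of the ligands and of Nrarp are shown so that the ligands can be compared with a known target of the pathway, with the matched letters in capitals, 5′ to 3′ on the strand of the gene.
Dll1 upstream start: aatgacagcCACGCGaacgacaca
Dll1 downstream start: agggcaggtCACGGGagagcaccg
Dll4: ctcgccgggCACGCGcagagctgg
Jag1: ccaggcgggCACGCGtcattgtgt
Jag2: cgatgcgggCACGCGgctggggac
Nrarp: ccccgccccCACGTGggcaccacc
The Dll1 windows lie at chr17:15376986-15377009 and chr17:15375914-15375937 on the minus strand, the Dll4 window at chr2:119325580-119325603 on the plus strand, the Jag1 window at chr2:137116677-137116700 on the minus strand, the Jag2 window at chr12:112929463-112929486 on the minus strand and the Nrarp window at chr2:25180641-25180664 on the plus strand. The match began 68 and 105 bases before the start site in Dll1, 195 in Dll4, 171 in Jag1 and 108 in Nrarp, and lay after the start in Jag2. Jag1 held a further match on the opposite strand, and Notch2 and Notch3 held 1 match each, which are not shown. A match is a run of letters and not a measured binding site.

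Over the 22 libraries, the genes whose pattern was most like that of a member were found by the root mean square difference of log2 CPM (prior count of 2), each centred on its own mean, among 13187 genes. Nearest to Notch1 were Zfp36l2 (0.40), Rcl1 (0.42) and Tfap4 (0.45), where Notch1 itself had a root mean square of 1.12 about its mean. Nearest to Dll1 were Galnt7 (0.38), Ern2 (0.42) and Gfpt1 (0.42), against 1.42 for Dll1 itself. Those nearest to Dll4 were Rnf11 (0.35), Gcc2 (0.37) and Sec23ip (0.39), against 1.01, and those nearest to Hes1 were Csrp2 (0.41), Gsto1 (0.50) and Gas6 (0.50), against 1.24. Galnt7, an enzyme that adds sugars to mucin-type proteins, had a mean of 15217 normalized counts in SecPDG and 10021 in tuft cells, against 2105 in stem cells and 910.3 in EECs. Csrp2, a LIM domain protein, had 3796 in stem cells, 1539 in SecPDG and 287 in EECs.

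A list of 72 further genes of the pathway was counted in the same fit. Against stem cells, 2 were called in AbsPro, both higher, while SecPDG had 8 higher and 1 lower. Tuft cells had 9 higher and 3 lower, enterocytes 12 and 13, and EECs 8 and 8. That is 2.78%, 12.5%, 16.7%, 34.7% and 22.2% of the list. In SecPDG against AbsPro 7 were called higher and 2 lower, or 12.5%. The shares of all genes are those given with the members.

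Other receptors and ligands held the largest changes, and every call among these 6 genes was higher than in stem cells, with 2 calls in SecPDG, 3 each in tuft cells and EECs and 4 in enterocytes. Nov, a secreted matricellular protein that binds Notch1, had 6.06 to 40.3 normalized counts in stem cells and 41.3 to 81.3 in AbsPro, whereas SecPDG had 896 to 3123 and tuft cells 1029 to 5232. Its log2 fold change against stem cells was 6.34 ± 0.63 in SecPDG (adjusted p = 1.59e-11) and 6.88 ± 0.62 in tuft cells (adjusted p = 4.70e-13), and it was 5.17 ± 0.57 in SecPDG against AbsPro (adjusted p = 1.55e-09). Dlk1, a ligand-like protein without the domain that activates the receptor, was at 0 to 3.20 in stem cells, 31.1 to 88.1 in SecPDG and 521 and 1073 in the EEC libraries. Dner, a neuronal ligand, was at 0 to 5.39 in stem cells and at 212 and 629 in EECs. In enterocytes Dlk1 averaged 52.6 and Dner 67.9 normalized counts. The background estimate there was 43.9% of the Dlk1 level and 25.8% of the Dner level.

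For Notch4, a receptor of endothelial cells, tuft cells were called above stem cells by 2.93 ± 0.46 on the log2 scale (adjusted p = 2.25e-06). Enterocytes had 2.49 ± 0.47 (adjusted p = 3.50e-05) and EECs 2.10 ± 0.61 (adjusted p = 0.00427), both called higher. The EEC libraries lay far apart, at 94.6 and 479 normalized counts. Both were above the stem cells (53.9 to 76.5), but the lower one was within the AbsPro range (22.8 to 124). The background estimate was 3.39% (tuft cells), 9.11% (enterocytes) and 13.9% (EECs) of the mean Notch4 level. Stem cells had 12.8 to 42.8 summed normalized counts of the endothelial markers (Pecam1, Cdh5, Kdr, Tie1, Tek and Cldn5), AbsPro 0 to 94.0 and SecPDG 25.5 to 97.0. The sum was higher in every tuft cell (182 to 694), enterocyte (367 to 929) and EEC library (838 to 1717), with Cldn5 at 0 in every library of stem cells, AbsPro and EECs. Tuft cells had 4 of the 6 called higher, and enterocytes and EECs 5 each, and their part in the Notch4 values was not tested.

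**Figure D4:**
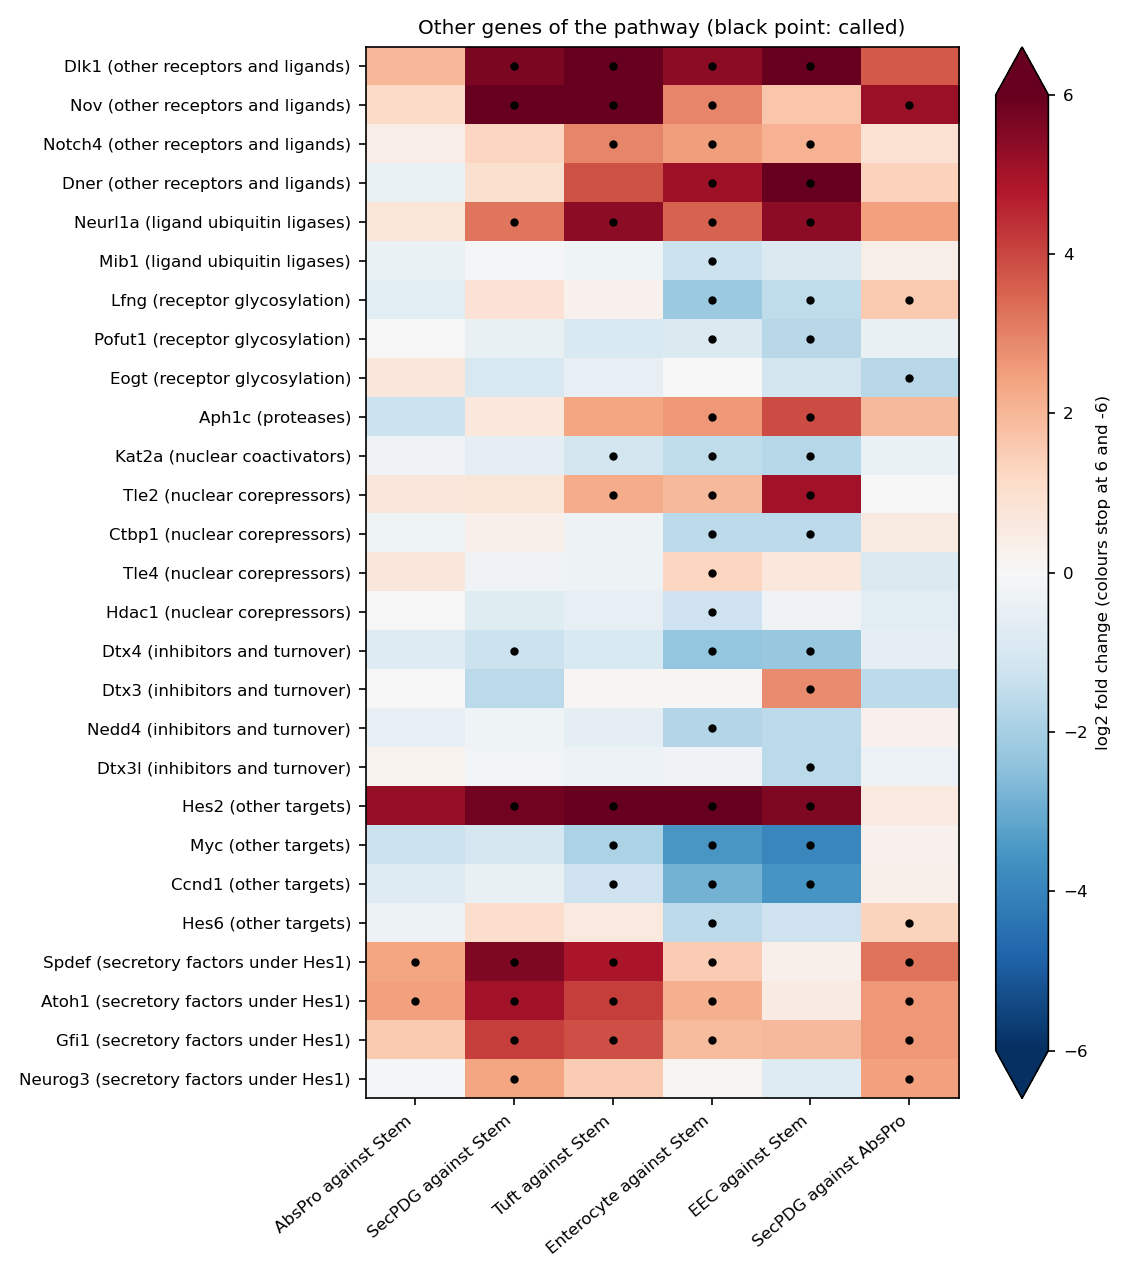
Fitted log2 fold change (colour, stopping at 6 and -6) of the genes named from each list of the pathway (rows) in 6 comparisons (columns), with a black point where called. Nov, Atoh1, Spdef and Gfi1 were called higher in SecPDG and tuft cells, and Myc and Ccnd1 lower in tuft cells, enterocytes and EECs; folds of Dlk1, Dner and Hes2 rest on stem cell libraries at or near 0.

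Among the enzymes that ubiquitinate ligands, Neurl1a was called higher in SecPDG (3.21 ± 0.79, adjusted p = 0.00385), in tuft cells (5.39 ± 0.61, adjusted p = 2.98e-10), in enterocytes (3.54 ± 0.75, adjusted p = 1.49e-04) and in EECs (5.38 ± 0.71, adjusted p = 1.54e-08). Its level was 3.37 to 14.5 normalized counts in stem cells and 288 to 424 in tuft cells, and the background estimate was 35.6% of its level in enterocytes. Mib1, which acts on Dll ligands, was called lower in enterocytes alone of the 6 comparisons (-1.28, adjusted p = 7.39e-04). None of the other 3 of the 5 was called.

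Lfng, a sugar transferase that makes receptors more responsive to Dll ligands, had 558 to 644 normalized counts in stem cells and 301 to 435 in AbsPro, against 782 to 1294 in SecPDG. It was higher in SecPDG than in AbsPro by 1.55 ± 0.32 (adjusted p = 4.14e-04) and lower than in stem cells in enterocytes (-2.22 ± 0.35, adjusted p = 1.18e-06) and EECs (-1.53 ± 0.45, adjusted p = 0.00447). Pofut1, which adds the first sugar of that chain, was called lower in enterocytes (-0.86, adjusted p = 0.00868) and EECs (-1.64, adjusted p = 0.00104). Of the 10 proteases that cut the receptor, including the gamma-secretase subunits, 1 was called, Aph1c, with fitted values of 2.59 in enterocytes and 3.92 in EECs. Stem 1 and Stem 2 were at 0 for Aph1c, and the background estimate was 35.6% of its level in enterocytes and 17.3% in EECs.

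Of the 8 coactivators, Kat2a alone was called, lower in tuft cells (-1.08), enterocytes (-1.54) and EECs (-1.71). Of the 12 corepressors, 4 were called lower and 2 higher in enterocytes, and Tle2 was called higher in tuft cells (2.24), enterocytes (1.95) and EECs (5.06). Of the 10 inhibitors and turnover genes, Dtx4, a Deltex ubiquitin ligase, was called lower in SecPDG (-1.29 ± 0.30, adjusted p = 0.00232), enterocytes (-2.33 ± 0.31, adjusted p = 3.35e-08) and EECs (-2.25 ± 0.43, adjusted p = 3.18e-05).

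Of the 11 other targets, Myc and Ccnd1, which many growth signals besides Notch control, were called lower in tuft cells, enterocytes and EECs. Their fold changes in these 3 were -1.88, -3.48 and -3.90 for Myc and -1.25, -2.82 and -3.52 for Ccnd1. Proliferation markers (Mki67, Pcna, Mcm2 and Top2a) moved with them, with 2, 4 and 4 of 4 called lower in these cell types. Hes2 was at 0 in Stem 1 and Stem 2, with 6 counts in Stem 3, and at 31.8 to 162 normalized counts in every AbsPro, SecPDG and tuft cell library. Of the 4 secretory factors that Hes1 is known to hold down, Atoh1 and Spdef were called higher than in stem cells in every cell type except EECs, and SecPDG exceeded AbsPro in all 4. SecPDG had 5642 to 9207 normalized counts of Atoh1, AbsPro 440.0 to 1946 and stem cells 174 to 265.

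RNA processing of the members was looked up in the deposited tables of skipped exons and of distal polyadenylation sites, whose libraries carry no names. The share of the distal site was listed for Hes1 and Notch1 in AbsPro against stem cells and for Hes1 and Jag1 in SecPDG against stem cells. For Hes1 it was 0.29, 1.00 and 0.82 in stem cells, 0.56, 0.18 and 0.64 in AbsPro, and 0.40, 0.78, 0.34 and 0.99 in SecPDG. The values of the 2 cell types overlapped in all 4 cases, where 7.54% and 6.00% of all transcripts in the 2 tables did not overlap. For Notch1 all values were 1.00 except one of AbsPro at 0.57, and for Jag1 they were 0.04 to 0.36 in stem cells and 0.00 to 0.24 in SecPDG.

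One skipped exon of a member had at least 10 counts in every library, an exon of Notch1 of 166 bases at chr2:26464806-26464971 (mm10), in tuft cells against stem cells. It was included in 117, 149 and 180 counts with 0 skipping counts in the 3 stem cell libraries. In tuft cells it had 15 to 99 inclusion counts, with 3 skipping counts in a single library and 0 in the other 4. The libraries of the 2 cell types overlapped, beside 0.749% of all events in that table that did not.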

How the data were processed

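RNA of 22 sorted populations was sequenced. Per the labels and the study's methods, the authors aligned reads to mm10 with STAR 2.5.2a and made the deposited counts, raw reads per gene, with HTSeq 0.6.1p1 without strand, so that reads of a gene and of an antisense partner cannot be told apart; SAMtools 1.3 is also named in the submitters' processing notes. The deposited fraction values (share of the distal polyadenylation site) and skipped exon counts came from tables the authors made between cell types. Their columns of fold changes, differences and p-values were not used, and neither were the splicing tables of other formats. File naming differs for the SecPDG and tuft cell libraries, and any difference in processing that goes with it cannot be told apart from cell type.

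Here 24421 genes were read from 22 files, leaving out the 5 entries that name no gene. The share outside genes, 40.9% to 89.7%, is the no-feature entry over the sum of gene, no-feature and ambiguous counts. One fit of all 22 libraries with cell type as the only term was made with the quasi-likelihood test of edgeR 4.0.16 in R 4.3.3 (TMM, filterByExpr), two-sided, with Benjamini-Hochberg adjustment over 22781 genes. The script was tested on simulated counts. Lengths were union exon lengths of the GENCODE annotation on GRCm38. Per the study's methods, replicates come from separate mice or pools of mice and separate sorts. Replicates differed by more than sampling noise (lowest chi-square per degree of freedom 11.2 over 33 pairs).

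The text names the 10 members, at most 4 genes of each pathway list (those called in most of the 6 comparisons, ties by size) and the 3 genes most like Notch1, Dll1, Dll4 and Hes1; Galnt7 and Csrp2 among the latter are given with levels as the nearest ones. Members and lists were chosen with earlier results of these data known. Alternatives were DESeq2 1.42.0, its size factors, library totals, no filter, no minimum mean, an adjusted p under 0.05, the 2 cell types alone, thinning to 4122122 counts, a replicate block, and leaving out each library. Trended dispersions were added after seeing the data.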

Additional observations from a re-analysis of the deposited data

Results flagged for a closer look

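In 30 groups of 4 or 5 libraries, the gap between the highest or lowest library and its nearest neighbour was set against the range of the group, and 3 groups passed Dixon's 95% critical value, where chance gives about 1 group in 20. In enterocytes, Dll1 was at 762 normalized counts in Enterocyte 4 against 260.4 to 403 in the other 4 libraries. Dll4 was at 311 in the same library against 170.3 to 204 in the others. Enterocyte 4 also had the highest summed proliferation markers of the enterocyte libraries (11393 against 2498 to 7974). In tuft cells, Jag2 was at 564 in Tuft 4 against 238 to 294 in the other 4. Tuft 4 had the highest summed tuft cell markers (61458) and immune markers (3200) of its group. The immune sum of tuft cells was mostly Ptprc, with a mean of 1671 against 1886 for the sum. The part of these other signals in the 3 values was not tested.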

How the results depend on the processing

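Of the 60 fold changes (10 members in 6 comparisons), 25 were called, and 16 of these kept their call in all settings tried. In AbsPro against stem cells, where 1 member was called, the number was 2 with DESeq2, with its size factors, with library totals, at an adjusted p under 0.05 and with the 2 cell types alone, and 0 without the filter, after thinning and with trended dispersions. In enterocytes against stem cells it was 2 in place of 4 after thinning and with trended dispersions, in EECs 2 in place of 6 with the 2 cell types alone, and in SecPDG against AbsPro 4 in place of 2 with library totals and with the 2 cell types alone. The 3 calls between neighbouring cell types became 6 with DESeq2, 7 with its size factors, 6 with library totals, 8 at an adjusted p under 0.05 and 1 with trended dispersions. The cause was not tested.

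When each library was left out in turn, the members called ranged from 0 to 1 in AbsPro (0 without Stem 1, Stem 2, Stem 3, AbsPro 1 or AbsPro 3) and from 2 to 4 in enterocytes (2 without Enterocyte 2). Neighbouring calls ranged from 1 (without SecPDG 1, SecPDG 3, Tuft 2 or Tuft 3) to 9 (without EEC 1), with 5 without Stem 2, Tuft 4 or Enterocyte 4, 6 without Stem 3 and 8 without EEC 2. Fold changes whose sign turned ranged from -0.46 to 0.17 for Jag2 in AbsPro, where it was 0.019 without AbsPro 3, and from -0.072 to 0.70 for Jag2 in SecPDG. For Notch3 they ranged from -0.39 to 1.09 in tuft cells and from -0.58 to 0.81 in SecPDG against AbsPro. In EECs they ranged from -2.46 to 0.33 for Notch2 and from -1.28 to 1.19 for Dll4. None of these was called in the fit reported; Notch2 was called without EEC 1.

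Other signs that turned were all of uncalled values. With DESeq2 and with its size factors in edgeR, enterocytes against stem cells gave 0.11 and 0.094 for Dll4, 0.000783 and 0.00306 for Jag1, and 0.12 and 0.040 for Jag2. In EECs the same 2 settings gave 0.63 and 0.38 for Notch2, 0.36 and 0.32 for Dll1, and 0.071 and 0.042 for Rbpj, and library totals gave 0.12 for Notch2. Notch3 in tuft cells was -0.049 without the filter. The size factors moved the median of all genes from -0.30 to 0.35 in enterocytes and to 0.48 in EECs.

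With a replicate block the members called were 1 for AbsPro, 4 for enterocytes, 6 each for SecPDG, tuft cells and EECs, and 2 for SecPDG against AbsPro, and none of the 60 fold changes gained or lost a call. Of the neighbouring pairs 2 were called in place of 3. Whether same-numbered libraries of different cell types share mice or sorts is not stated. Such libraries correlated from -0.391 to 0.501, and 0 of 15 pairs of cell types had all correlations over 0.1. Of these libraries, 11 of 44 correlated best with their own number. With so few libraries per cell type, these values cannot settle whether the numbers are paired. The minimum of 20 counts left no value for the Notch1 exon. Depth limits EEC 1 most.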
